A study of Caenorhabditis elegans with 20 samples.

Results

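The proteasome subunit genes of C. elegans were read in RNA-seq of whole L3 larvae. They were chosen by name, as the genes of the expression table whose symbol in the reference gene table starts with pas-, pbs-, rpt- or rpn-. This gave 32 of the 15568 genes listed, and pas-1 was the only one of the 33 genes with such a symbol in the reference that was not analysed here. The 32 comprise 13 genes of the 20S core, 6 of the alpha ring and 7 of the beta ring. The 19 genes of the 19S cap are 6 ATPases, 4 other genes of the base and 9 genes of the lid. The rule itself used no measured value, but it was set with earlier results of these data known. All 32 passed the filter on low values.

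The proteasome is the barrel-shaped protease that degrades proteins tagged with ubiquitin in the cytosol and nucleus of every eukaryotic cell. The core is built of stacked rings, with outer alpha rings that gate the entrance and inner beta rings that hold the protease sites. The cap sits on the core and has a base, whose ring of Rpt ATPases unfolds the substrate, and a lid, whose Rpn-11 removes the ubiquitin chain. In C. elegans the transcription factor SKN-1A raises transcription of the subunit genes when proteasome activity is impaired.

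The study asked how genes respond to loss of LIN-35, the Rb/p130-like subunit of the DREAM repressor complex, and of HTZ-1, the histone variant H2A.Z. RNA was measured in 2 libraries of each of 3 genotypes, all grown at 20°C. The wild type was N2, and the lin-35 mutant was the outcrossed strain JA1507, which carries lin-35(n745). The htz-1 larvae were homozygotes segregated from htz-1(ok3099)/nT1[qIs51] mothers and sorted by the absence of the GFP that marks the balancer. They therefore held maternal product, and loss of HTZ-1 in them was partial. No sorting was described for N2 and lin-35 larvae, which were cleaned on a sucrose gradient, so genotype and sorting cannot be told apart in comparisons with htz-1. Whether the libraries of 1 genotype were separate cultures is not given, so the p-values measure only the spread between these libraries.

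The libraries held 13604791 to 18301926 reads, of which 73.85% to 77.17% fell in the listed genes. The subunit genes took 70866 to 101129 reads per library. A single subunit gene had 872 to 5775 reads in a library, apart from rpn-6.2, which had 64 to 146. Levels are given as scaled RPKM, the deposited RPKM (reads adjusted for gene model length and library depth) divided by a size factor for each library. The htz-1 transcript was at 81.4 and 85.6 scaled RPKM in N2 and at 67.0 and 29.4 in the htz-1 libraries (adjusted p = 0.0762, limma), so it did not check the label of htz-1 replicate 1, which was closer to N2. The lin-35 transcript was at 12.5 and 11.6 in N2 and 11.5 and 12.5 in lin-35, and since n745 is a point mutation this level checks nothing.

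In N2 the subunit genes were among the more strongly expressed genes, with a median rank at percentiles 93.1 and 92.8 of the 9679 genes tested. The core genes lay between 109 and 206 scaled RPKM (mean of the 2 libraries), a 1.89-fold range. The cap genes other than rpn-6.2 lay between 50.2 and 124, a 2.47-fold range. Of the 13 core genes, 9 had a higher mean level than the highest cap gene, rpn-3. The plot of levels by library shows the core genes of both rings above most of the cap.

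**Figure D1:**
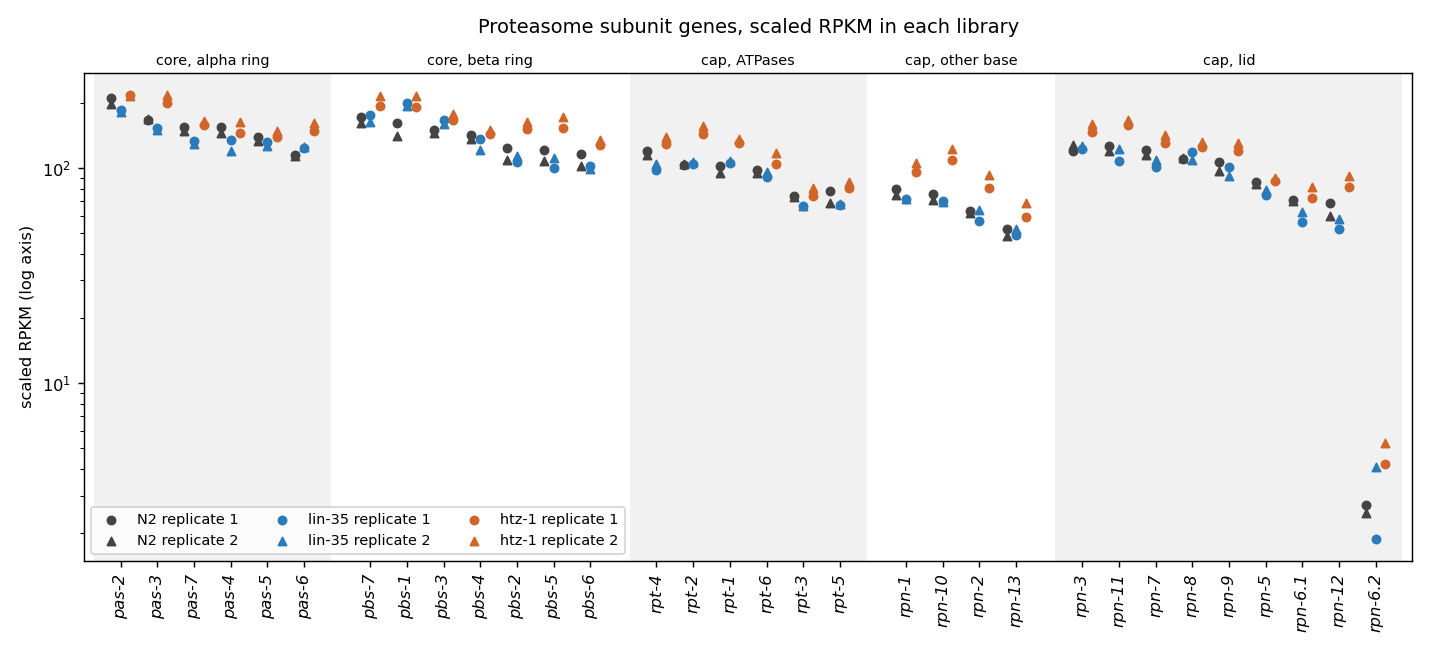
Scaled RPKM (log axis) of the 32 subunit genes in each of the 6 libraries, ordered by group and then by the N2 mean, with circles for replicate 1 and triangles for replicate 2. In N2 the core genes lie between 109 and 206, the cap genes other than rpn-6.2 between 50.2 and 124, and rpn-6.2 near 2.60.

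In N2 the highest subunit transcript was pas-2, an alpha ring gene, at 212 and 199 scaled RPKM, beside 218 and 215 in htz-1 and 186 and 182 in lin-35. The lowest apart from rpn-6.2 was rpn-13, a ubiquitin receptor of the base, at 52.2 and 48.28 in N2, 59.0 and 68.5 in htz-1 and 49.0 and 52.2 in lin-35. Of the 31 neighbouring pairs in the order of N2 levels, 11 had N2 libraries that did not overlap and 20 overlapped, so that only the broad order holds beyond the spread. The core gene models were shorter than those of the cap, with medians of 1067 and 1804 bases. Across the 31 genes other than rpn-6.2, the N2 level was inversely related to gene model length (Spearman's rho = -0.656). It was -0.44 within the 13 core genes and -0.364 within 18 cap genes. These are correlations across genes of the same libraries and are given as a description.

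The lid subunit Rpn6, which clamps the cap to the core, is encoded by a pair of genes with very unequal levels. rpn-6.1 was at 70.8 and 70.4 scaled RPKM in N2, 72.6 and 81.8 in htz-1 and 56.2 and 62.2 in lin-35. Its paralog rpn-6.2 was at 2.71 and 2.49 in N2, 4.19 and 5.28 in htz-1 and 1.89 and 4.07 in lin-35. The N2 mean of rpn-6.1 was 27.2 times that of rpn-6.2. Both htz-1 libraries lay above both N2 libraries for each gene, but neither difference passed the test. The log2 fold change in htz-1 was 0.13 ± 0.10 (SE, adjusted p = 0.361, limma) for rpn-6.1 and 0.75 ± 0.31 (adjusted p = 0.107) for rpn-6.2. Reads shared by the paralogs could have been split or lost by the counting, so the level of rpn-6.2 is uncertain.

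With all libraries in the fit, genes of every part of the proteasome rose in htz-1 larvae against wild type. Of the 32 genes, 15 rose and 0 fell at an adjusted p under 0.05 in limma, against 15.2% of all tested genes that rose and 16.5% that fell. The median log2 fold change was 0.30 (1.23-fold), where the median of all genes tested was -0.005, and all 32 values were positive (49.6% of all genes), from 0.04 for pas-4 to 0.75 for rpn-6.2. Both htz-1 libraries exceeded both N2 libraries in 29 of the 32 genes (35.4% of all tested genes did so), and pas-4, pas-5 and rpt-3 overlapped. At an unadjusted p under 0.05, 20 were higher and 0 lower, where 21.5% of all genes were higher and 22.3% lower. In these bulk samples a larger share of cells with high levels and more RNA per cell cannot be told apart.

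The 32 genes also shifted together between libraries of 1 genotype. Their mean log2(scaled RPKM + 0.5) was 6.63 and 6.55 in N2, 6.82 and 6.95 in htz-1 and 6.51 and 6.55 in lin-35. The lower htz-1 library was 0.196 above the higher N2 library, and the SD between replicates, pooled over the genotypes, was 0.0626. In htz-1, 31 of 32 genes were higher in replicate 2 than in replicate 1, by a median of 0.12 on the log2 scale. In N2, 28 of 32 were higher in replicate 1, by a median of 0.08. Of all tested genes, 50.9% were higher in replicate 1 in htz-1 and 49.7% in N2. Leaving out N2 replicate 1 left 6 genes that rose, leaving out N2 replicate 2 left 2 (rpn-10 and rpt-2), and leaving out htz-1 replicate 2 left 4 (pas-6, rpn-10, rpt-1 and rpt-2). The share of all tested genes that rose also dropped in these fits, to 5.97%, 7.26% and 8.17%. Without htz-1 replicate 1, whose htz-1 transcript was close to N2, 15 genes rose, the same genes as with it. The median stayed between 0.23 and 0.37 when any 1 library was left out.

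**Figure D2:**
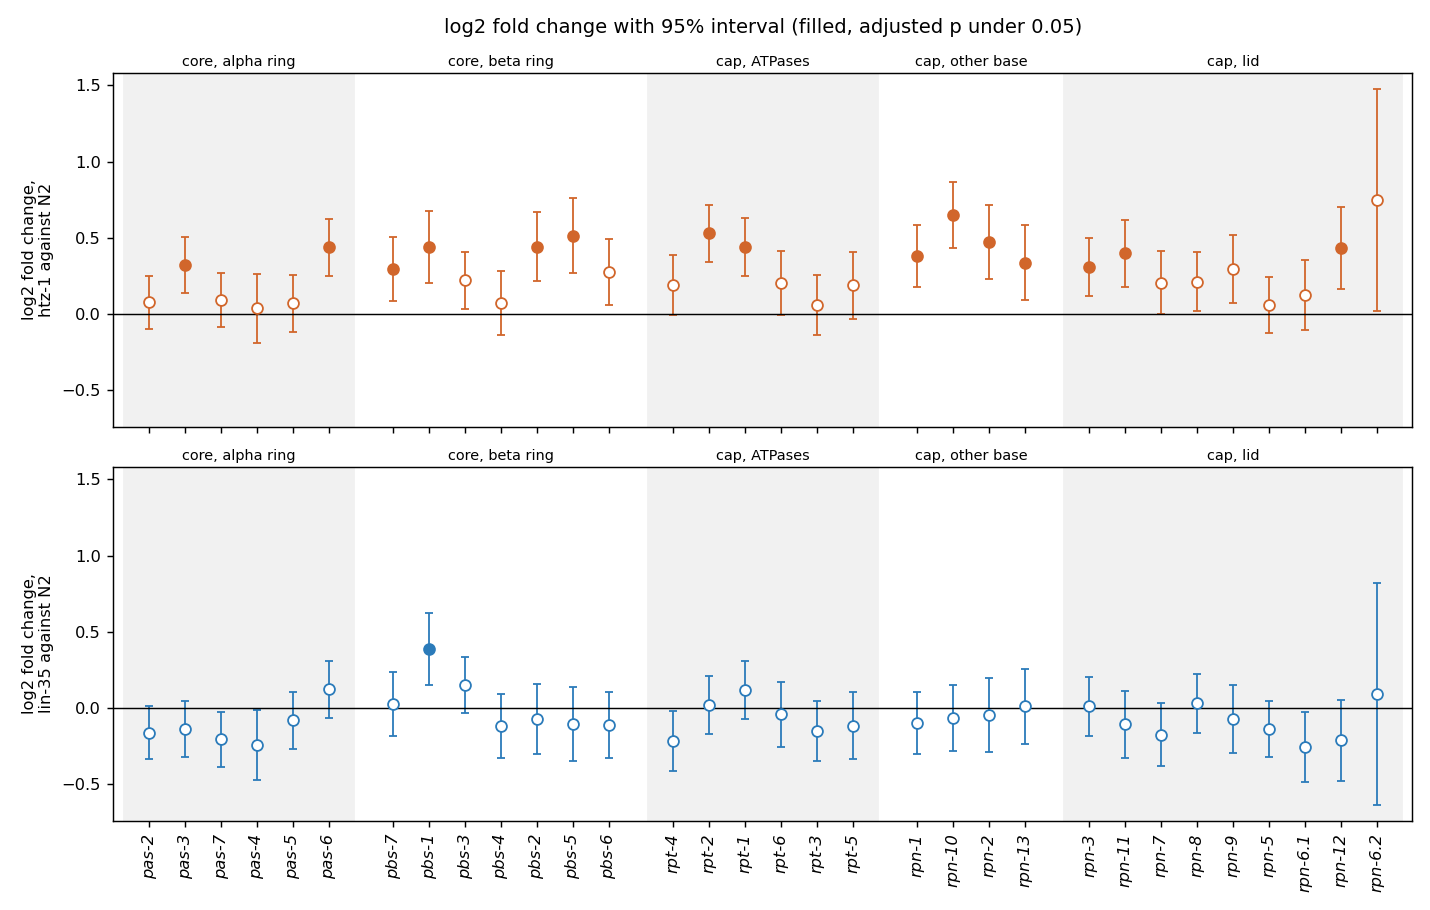
Log2 fold change of each subunit gene with its 95% interval from limma, htz-1 against N2 above and lin-35 against N2 below, in the order of the plot of levels, with filled points for an adjusted p under 0.05. In htz-1 all 32 points lie above 0 and 15 are filled, whereas in lin-35 10 points lie above 0, 22 below, and pbs-1 alone is filled.

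Within the core, some genes of the alpha ring passed the test in htz-1 and others did not, which does not show that they differ from each other. Of its 6 genes, pas-6 (log2 fold change 0.44 ± 0.08, SE, adjusted p = 0.00714, limma) and pas-3 (0.32 ± 0.08, adjusted p = 0.02001) rose. The other 4, pas-2, pas-4, pas-5 and pas-7, did not pass the test and had log2 fold changes between 0.04 and 0.09. pas-6 was at 115 and 114 scaled RPKM in N2 and 149 and 162 in htz-1. pas-3 was at 166 and 169 in N2 and 201 and 218 in htz-1. The groups did not overlap for either gene, but both calls were lost when either N2 library was left out.

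In the beta ring 4 of 7 genes rose in htz-1, and the median log2 fold change of the 7 was 0.30. pbs-5, which encodes the beta5 subunit with chymotrypsin-like activity, was at 121 and 108 scaled RPKM in N2, 154 and 172 in htz-1 and 100 and 112 in lin-35. Both htz-1 libraries stood above the other 4, and the log2 fold change against N2 was 0.51 ± 0.10 (SE, adjusted p = 0.0109, limma). pbs-2, which encodes the beta2 subunit with trypsin-like activity, was at 124 and 108 in N2, 151 and 164 in htz-1 and 106 and 114 in lin-35. Its htz-1 libraries were again the highest 2 of the 6 (0.44 ± 0.10, adjusted p = 0.0146). pbs-1, which encodes the beta1 subunit with caspase-like activity, was at 162 and 141 in N2, 193 and 217 in htz-1 and 200 and 194 in lin-35. For this gene the libraries of both mutants lay above those of N2 and overlapped each other (htz-1 against N2, 0.44 ± 0.10, adjusted p = 0.0165). The 3 protease-site subunits were thus all among the genes that rose. pbs-7, a beta subunit without a protease site, rose by 0.30 ± 0.09 (adjusted p = 0.0419), and the values of pbs-3, pbs-4 and pbs-6, which also lack one, were 0.22, 0.07 and 0.28 and did not pass.

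Of the 6 ATPases of the cap, 2 rose in htz-1. rpt-2 was at 103.7 and 103.9 scaled RPKM in N2, 144 and 157 in htz-1 and 104.01 and 106.5 in lin-35, with a log2 fold change in htz-1 against N2 of 0.53 ± 0.08 (SE, adjusted p = 0.00387, limma). The htz-1 libraries were well apart from the other 4, which were nearly level. rpt-1 was at 102 and 94.8 in N2, 130 and 137 in htz-1 and 105 and 108 in lin-35 (htz-1 against N2, 0.44 ± 0.08, adjusted p = 0.00755). The remaining ATPase genes rpt-3, rpt-4, rpt-5 and rpt-6 had log2 fold changes between 0.06 and 0.20 and did not pass the test.

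With all libraries in the fit, all 4 genes of the base outside the ATPase ring rose in htz-1, with a median log2 fold change of 0.43 (1.34-fold). Only the call of rpn-10 held when either library of N2 or either library of htz-1 was left out. rpn-10, a ubiquitin receptor, had the largest change among the 15 genes that rose. It was at 76.0 and 70.9 scaled RPKM in N2, 109 and 122 in htz-1 and 70.6 and 69.8 in lin-35, with a log2 fold change in htz-1 against N2 of 0.65 ± 0.09 (1.57-fold, adjusted p = 0.00300, limma). rpn-2, a scaffold protein of the base, was at 63.1 and 61.7 in N2, 81.0 and 92.7 in htz-1 and 56.9 and 64.1 in lin-35 (htz-1 against N2, 0.47 ± 0.10, adjusted p = 0.0145). For both genes the htz-1 libraries lay above the other 4, which lay close together. The other large scaffold, rpn-1, rose by 0.38 ± 0.09 (adjusted p = 0.0162), and rpn-13 by 0.34 ± 0.10 (adjusted p = 0.0464).

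Of the 9 lid genes 3 rose in htz-1. They were rpn-12 (log2 fold change 0.43 ± 0.11, SE, adjusted p = 0.0266, limma), rpn-11, the deubiquitinase (0.40 ± 0.09, adjusted p = 0.0185), and rpn-3 (0.31 ± 0.08, adjusted p = 0.0273). rpn-11 was at 127 and 121 scaled RPKM in N2, 159 and 168 in htz-1 and 107 and 123 in lin-35, and its htz-1 libraries were above the other 4. Both htz-1 libraries lay above both N2 libraries in all 9 lid genes. The lowest lid value was that of rpn-5, at 0.06.

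With all libraries in the fit, genes of both core and cap rose in htz-1. All the core calls and most of the cap calls were lost when N2 replicate 2 was left out. In htz-1 6 of 13 core genes and 9 of 19 cap genes rose, with median log2 fold changes of 0.28 and 0.31. The mean log2 level of the core minus that of the cap was 0.963 and 0.933 in N2, 0.890 and 0.857 in htz-1 and 1.05 and 0.911 in lin-35. The htz-1 libraries were thus the lowest 2 of the 6, and the lin-35 libraries lay on both sides of N2. Without rpn-6.2 the values were 0.710 and 0.678 in N2, 0.655 and 0.631 in htz-1 and 0.781 and 0.689 in lin-35, with htz-1 again the lowest and lin-35 replicate 2 between the N2 libraries. On the means over the libraries the difference of htz-1 from N2 was -0.07, and -0.05 without rpn-6.2. The SD of core minus cap between replicates, pooled over the genotypes, was 0.0594, so these differences were about as large as that spread. The difference was -0.25 when the median gene of core and of cap was used in place of the mean. The ratio of the mean core level to the mean cap level without rpn-6.2 was 1.61 and 1.58 in N2 and 1.54 and 1.52 in htz-1, and 1.69 and 1.59 in lin-35. No test was made of these scores, since the genes were chosen as a list.

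**Figure D3:**
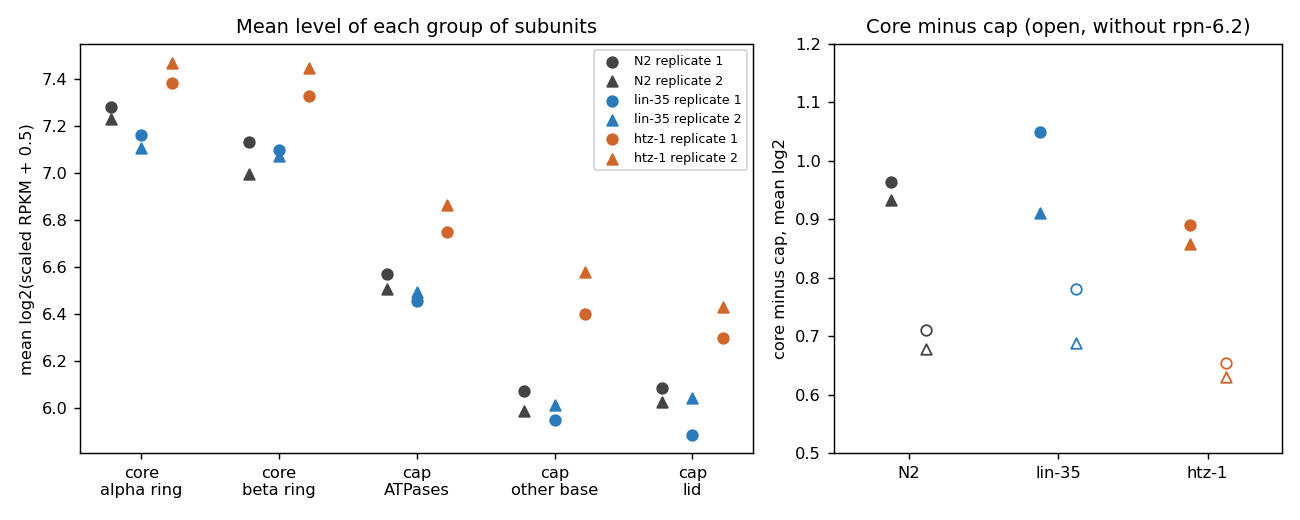
Left, the mean log2(scaled RPKM + 0.5) of the genes of each group of subunits in each library, with circles for replicate 1 and triangles for replicate 2. Right, the core mean minus the cap mean in each library, filled with all 32 genes and open without rpn-6.2, from 0.890 and 0.857 in htz-1 to 1.05 in lin-35 replicate 1. In every group both htz-1 libraries lie above the N2 libraries.

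In lin-35 larvae 1 of the 32 genes rose and 0 fell (limma, adjusted p under 0.05), against 12.1% of all tested genes that rose and 11.6% that fell. At an unadjusted p under 0.05, 1 was higher and 4 were lower, where 17.9% and 18.4% of all genes were. The gene that rose was pbs-1, with the values given above and a log2 fold change of 0.38 ± 0.10 (SE, 1.31-fold, adjusted p = 0.0313). Its 2 lin-35 libraries lay above its 2 N2 libraries. The call was lost when any 1 of the N2 or lin-35 libraries was left out, and it was the same when a library of htz-1 was left out.

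The other 31 genes had log2 fold changes from -0.25 for rpn-6.1 to 0.15 for pbs-3 in lin-35 and did not pass the test, which does not show that they were equal. The median of the 32 was -0.09 (-0.01 over all genes tested), with 10 values above 0 and 22 below (48.4% and 51.6% of all tested genes), and the sign depended on the scaling. With the RPKM as deposited it was 0.090, on a scale where the median of all genes moved to 0.15, and with quantile normalization it was 0.084, where the median of all genes was -0.08. Of the 32 values, 27 were positive with the RPKM as deposited and 26 with quantile normalization. On both of these scales 4 genes rose, pbs-1 with pas-6, pbs-3 and rpt-1, where 18.4% and 10.6% of all tested genes rose. With the main scaling, the 2 lin-35 libraries lay above both N2 libraries in 5 genes (pas-6, pbs-1, pbs-3, rpt-1 and rpt-2) and below them in 14, where 30.9% and 32.6% of all tested genes did so. Between the lin-35 libraries, 10 of 13 core genes were higher in replicate 1 and 15 of 19 cap genes in replicate 2. Of all tested genes, 49.2% were higher in replicate 1. The median of replicate 1 minus replicate 2 on the log2 scale was 0.045 in the core and -0.068 in the cap.

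A list of L3 genes with all 8 DREAM members at their promoters, drawn up from ChIP-seq that was not analysed here, held 5 of the 32 subunit genes (477 of the 9679 tested genes, 4.93%), pas-5, pbs-1, rpn-5, rpn-11 and rpt-1. pbs-1, the gene that rose in lin-35, was among them. At 1.31-fold, pbs-1 did not pass the study's stricter thresholds (adjusted p under 0.001 and a fold above 1.5) applied to the limma fit. The other 4 had log2 fold changes in lin-35 of -0.08 for pas-5, -0.14 for rpn-5, -0.11 for rpn-11 and 0.12 for rpt-1, and did not pass the test. Those of pas-5, rpn-5 and rpn-11 turned positive with the RPKM as deposited and with quantile normalization. In htz-1, pbs-1, rpn-11 and rpt-1 rose, and pas-5 and rpn-5 had values of 0.07 and 0.06 and did not pass.

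The mutants were also compared directly in the same fit. Against htz-1, 19 of the 32 genes were lower in lin-35 and 0 higher, where 14.5% of all tested genes were lower and 15.3% higher. The median log2 fold change was -0.32, all 32 values were negative (50.0% of all genes), and both lin-35 libraries lay below both htz-1 libraries in 30 genes (33.6% of all tested genes). With the RPKM as deposited 9 were lower, where 8.42% of all tested genes were, and 29 of 32 values were negative. With quantile normalization 11 were lower, where 15.6% of all tested genes were, and 28 values were negative. The count was 7 without htz-1 replicate 2 (6.32% of all tested genes), 9 without lin-35 replicate 1 (8.31%), 12 without N2 replicate 1 (10.3%) and 12 without N2 replicate 2 (10.4%). This comparison shares the htz-1 libraries with the one against N2. The genes lower in lin-35 than in htz-1 were 6 of the core and 13 of the cap, with rpn-10 at -0.71 ± 0.09 (SE, adjusted p = 0.00211, limma) and rpn-12 at -0.65 ± 0.11 (adjusted p = 0.00688). pbs-1 and pbs-3 were the 2 genes whose libraries overlapped between the mutants.

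Genes that work beside the proteasome were read from 6 lists. Of their 49 tested genes, 11 rose and 5 fell in htz-1, and 4 rose and 3 fell in lin-35, beside the shares of all tested genes given above. With the RPKM as deposited 12 rose and 1 fell in lin-35, where 18.4% of all tested genes rose and 6.12% fell. Of the 16 calls in htz-1, those of ubq-1, usp-14, ubc-3, ubc-8 and ubc-25 held with any 1 library left out, and of the 7 in lin-35, those of usp-14 and ubc-7. The others were lost without 1 or more of the libraries compared. The polyubiquitin gene ubq-1 encodes ubiquitin as head-to-tail repeats. It was at 199 and 212 scaled RPKM in N2, 555 and 621 in htz-1 and 274 and 384 in lin-35, with no overlap between the genotypes. The log2 fold change was 1.52 in htz-1 (adjusted p = 0.00108, limma) and 0.66 in lin-35 (adjusted p = 0.0215). The ubiquitin fused to a ribosomal protein, ubq-2, and the activating enzyme uba-1 had values of 0.10 and 0.20 in htz-1 and did not pass. Reads that match several ubiquitin repeats or genes could have been lost in the counting.

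**Figure D4:**
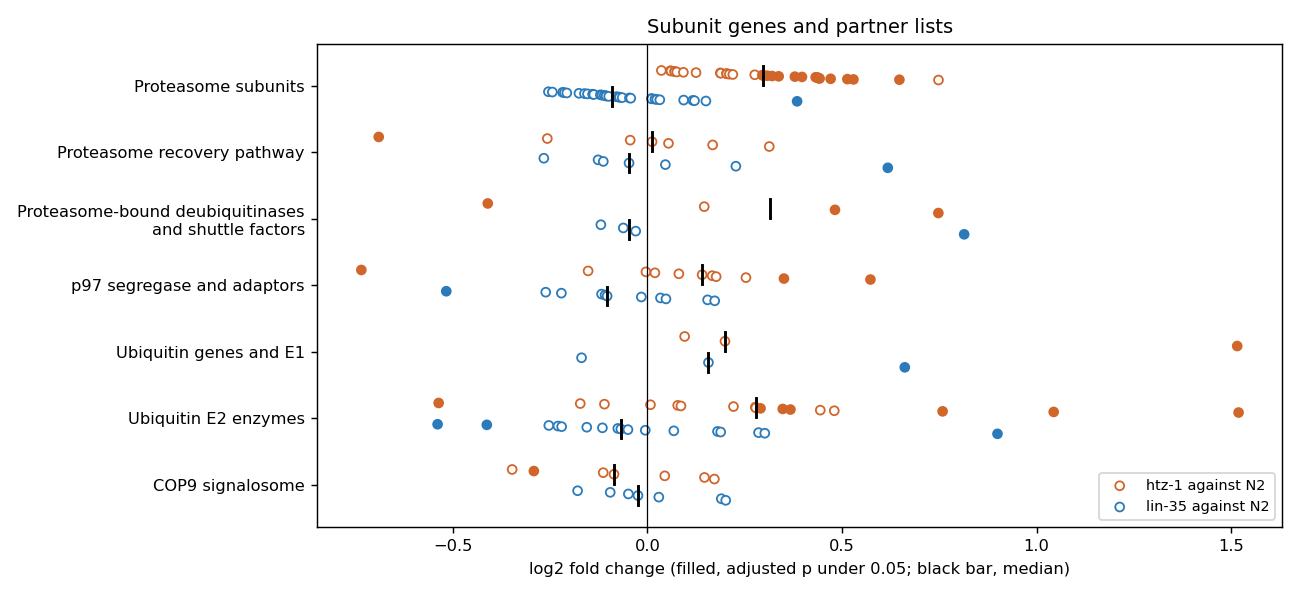
Log2 fold change of each tested gene of the subunit list and of the 6 partner lists in htz-1 against N2 (orange) and lin-35 against N2 (blue), with filled points for an adjusted p under 0.05 in limma and a black bar at the median. In htz-1 the subunit genes lie between 0.04 and 0.75, and ubq-1 and ubc-8 stand near 1.52.

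Among the proteins that dock on the cap, usp-14, a deubiquitinase, was at 46.0 and 41.9 scaled RPKM in N2, 72.9 and 75.3 in htz-1 and 76.9 and 78.3 in lin-35. On the log2 scale, used for all changes of partner genes, it rose by 0.81 in lin-35 (adjusted p = 0.000844, limma) and by 0.75 in htz-1 (adjusted p = 0.00152). The shuttle factors, which carry tagged proteins to the cap, went opposite ways in htz-1. rad-23 rose by 0.48 (adjusted p = 0.0223), and ubql-1, the ubiquilin, fell by 0.41 (adjusted p = 0.0222). ubh-4, the deubiquitinase that binds Rpn-13, had a value of 0.15 and did not pass.

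Of the 17 tested E2 enzymes, which pass ubiquitin on to substrates, 6 rose and 1 fell in htz-1, with a median of 0.28. ubc-8 rose by 1.52 (adjusted p = 0.00412, limma), ubc-25 by 1.04 (adjusted p = 0.00267) and ubc-3 by 0.76 (adjusted p = 0.00431), while ubc-15 fell by 0.54 (adjusted p = 0.0326). In lin-35 ubc-8 rose by 0.90 (adjusted p = 0.0313), and ubc-7 and ubc-14 fell by 0.54 and 0.41 (adjusted p = 0.00294 and 0.0222). ubc-8 was at 15.98 and 22.4 scaled RPKM in N2, 53.2 and 57.3 in htz-1 and 28.4 and 44.9 in lin-35, in an order without overlap between genotypes.

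The p97 ATPase pulls tagged proteins out of complexes and membranes before they reach the proteasome. Of the 11 tested genes of p97 and its adaptors, 2 rose and 1 fell in htz-1, with ufd-1 at 0.57 (adjusted p = 0.00823, limma), cdc-48.2, which encodes p97, at 0.35 (adjusted p = 0.0353) and the related ATPase gene cdc-48.3 at -0.73 (adjusted p = 0.00689). cdc-48.1, a close copy of cdc-48.2 with which it may share reads, had a value of 0.25 and did not pass. In lin-35 the adaptor ubxn-1 fell by 0.52 (adjusted p = 0.0189), and no other gene of this list passed.

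A list of 7 genes was read for the pathway that restores proteasome levels, and it also held wdr-23 and aip-1. Of these, 0 rose and 1 fell in htz-1. At an unadjusted p under 0.05 in limma 0 were higher and 2 lower, where 21.5% and 22.3% of all tested genes were. SKN-1A protein was not measured. skn-1 itself was at 32.6 and 37.2 scaled RPKM in N2, 44.6 and 42.2 in htz-1 and 33.6 and 49.6 in lin-35, and its value in htz-1, 0.31, did not pass (adjusted p = 0.217, limma). The reads cover all skn-1 isoforms, and the protease ddi-1 and the glycanase png-1, which process SKN-1A, had values of 0.05 and -0.26 and did not pass. The gene that fell was aip-1, which encodes a zinc finger protein related to the mammalian arsenite-inducible AIRAP. It was at 26.03 and 22.5 in N2, 13.2 and 16.6 in htz-1 and 37.7 and 37.1 in lin-35, so that it fell by 0.69 in htz-1 (adjusted p = 0.00976) and rose by 0.62 in lin-35 (adjusted p = 0.0165).

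The COP9 signalosome, which removes Nedd8 from cullins and resembles the lid in its subunits, had 7 tested genes. In htz-1 0 rose and 1 fell, cif-1, which encodes a subunit shared with a translation initiation factor, by 0.29 (adjusted p = 0.0289, limma). At an unadjusted p under 0.05, 0 were higher and 2 lower (21.5% and 22.3% of all tested genes were), and the median was -0.09. In lin-35 0 rose and 0 fell, and none had an unadjusted p under 0.05.

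Markers of the tissues in a whole larva were also read. Of all tested genes, 15.2% rose and 16.5% fell in htz-1, and 12.1% rose and 11.6% fell in lin-35. Of 15 tested germline markers 7 rose and 0 fell in htz-1, with a median log2 fold change of 0.44 and 15 of 15 values positive. In lin-35 6 rose and 0 fell, with 9 values positive and 6 negative. The summed level of the 16 in the table was 438 and 468 scaled RPKM in N2, 511 and 622 in htz-1 and 940 and 1035 in lin-35, where pgl-1 stood at 198 and 212 (55.5 and 60.6 in N2) and pgl-3 at 198 and 200 (10.00 and 11.2 in N2). These 2 genes made up much of the rise of the sum in lin-35. The lowest of the 6 negative values in lin-35 were -0.32 for glh-4 and -0.30 for gld-1 and for htp-3, and none of the 6 passed the test. None of the 16 was at 0 in every library, and nos-2 was under 1 in each. Of 7 body wall muscle markers 0 rose and 0 fell in htz-1, and 6 fell in lin-35. At an unadjusted p under 0.05 in limma, 1 was higher and 0 lower in htz-1, where 21.5% and 22.3% of all tested genes were. Of 6 intestine markers 3 fell in htz-1 and 4 in lin-35, where 2 rose. Of 10 neuron markers, 1 rose and 3 fell in htz-1, and 1 rose and 1 fell in lin-35. The hypodermis and pharynx lists had only 2 tested genes each, of which 1 hypodermis marker rose in each mutant. Whether the marker values followed tissue makeup or the regulation of the markers themselves was not tested. The part of tissue makeup in the subunit values was not tested either.

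Of the 32 subunit genes, 10 overlap another protein-coding gene in the reference annotation, taking whole gene spans with introns. Reads in such overlaps are dropped by union counting without strand, and whether the counting used strand was not given. Among the genes that rose in htz-1 these are pbs-7, rpt-2, rpn-10 and rpn-11, so their levels may be less certain than those of the others.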

How the data were processed

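The 6 RNA-seq libraries of L3 larvae (2 of N2, 2 of lin-35, 2 of htz-1) were analysed. The authors aligned reads with BWA 0.6.2 to WS220/ce10, used SAMtools 0.1.18, assigned them to genes by HTSeq union counting over lifted WS235 exons, and left out oscillating genes. The deposited values used are RPKM per library. The authors' log2 fold changes and p-values from DESeq2 stand in the same table and were not used. The ChIP-seq libraries were not analysed here.

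Symbols of the WBcel235 gene table matched 15397 of the 15568 sequence names. Its build differs, so no coordinates are printed. The RPKM of all genes were whole reads within 0.002 reads, which gave the depth and the gene model lengths. RPKM were divided by median-of-ratios size factors (0.946 to 1.11). The log2(RPKM + 0.5) of 9679 genes, those whose RPKM averaged at least 1 over the libraries, entered limma 3.58.1 in R 4.3.3 with a variance trend, in a single model of the 3 genotypes (degrees of freedom 3 residual and 4.01 prior). Tests were two-sided, and p-values were adjusted over all tested genes by the Benjamini-Hochberg method, with a threshold of 0.05. Fold changes are on this scale, so those of low genes are understated. With 2 libraries against 2, an exact permutation test cannot go below p = 0.333. The scripts were tested on simulated data. Percentages of all tested genes use the same fit and rule.

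All 6 values are given for the 3 members of core and of cap with the largest change past the test in each mutant and for the rpn-6 pair. Up to 4 called genes of each partner list are named. pas-3, pas-6, rpt-1, rpn-11, rpn-13, pas-2, skn-1 and genes named without a call were chosen after their values were seen. The members, lists and alternatives were chosen with earlier results of these data known. The alternatives were unscaled RPKM, quantile normalization, pseudocounts of 0.1 and 1, all genes without a filter, the replicate number as a block, a fit of the 2 compared genotypes alone, a fit without the trend, limma-voom on the recovered reads, the study's stricter thresholds (adjusted p under 0.001 and a fold above 1.5) and each library left out.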

Additional observations from a re-analysis of the deposited data

How the results depend on the processing

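In htz-1 against N2 the count of subunit genes that rose was 15, and 13 to 17 with unscaled RPKM, quantile normalization, either other pseudocount, no filter, a fit of these 2 genotypes alone or limma-voom. It was 9 with no variance trend, 0 by the stricter thresholds (where 74 of all genes rose) and 2 to 16 with a library left out. All 32 values were positive under each of these except without N2 replicate 2 and without htz-1 replicate 2, where pas-4 was at -0.017 and -0.038. The median ranged from 0.23 to 0.37. Of all tested genes, 15.2% rose in htz-1 in the main fit, 13.5% with no variance trend and 9.92% with no filter. The share was 14.7% with quantile normalization and 16.1% with the 2 genotypes alone, and between them with unscaled RPKM, either other pseudocount or limma-voom. The shares with an N2 library or htz-1 replicate 2 left out are given above. In lin-35 against N2 the 1 gene that rose became 4 with the RPKM as deposited or quantile normalization, with medians of 0.090 and 0.084, and 0 with no variance trend (where 10.8% of all tested genes rose) or by the stricter thresholds (1.99%). With a library left out it was 0 to 1. In lin-35 against htz-1 the 19 genes that were lower became 9 with the RPKM as deposited (median -0.15) and 11 with quantile normalization (median -0.23). They became 12 with only the 2 genotypes compared (where 10.2% of all tested genes were lower), 10 with no variance trend (10.8%) and 0 by the stricter thresholds (0.651%). With a library left out there were 7 to 19, with medians from -0.41 to -0.29. Core minus cap in htz-1 less that in N2 was -0.07, and -0.25 with the median of the genes in place of the mean. In lin-35 it was 0.03, and -0.038 to 0.10 with a library left out. The partner genes that rose in lin-35 were 4, but 12 with the RPKM as deposited and 8 with quantile normalization. Of all tested genes, 12.1%, 18.4% and 10.6% rose in these fits, in that order. The partner genes that fell were 3, but 1 with the RPKM as deposited, where 11.6% and 6.12% of all tested genes fell. With a library left out, 2 to 6 rose and 1 to 3 fell in lin-35, and 5 to 11 rose and 0 to 5 fell in htz-1. The cause was not tested.

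In lin-35 against N2, 10 of the 32 values were positive, but 27 with the RPKM as deposited and 26 with quantile normalization. Among the 10 genes whose lin-35 values were followed singly under each setting, those that changed sign were rpn-6.2 (-0.16 with quantile normalization, and from -0.37 without lin-35 replicate 2 to 0.55 without lin-35 replicate 1), pas-5 (0.10 with the RPKM as deposited, 0.14 with quantile normalization), rpn-5 (0.039 and 0.0066) and rpn-11 (0.074 and 0.087). In lin-35 against htz-1 they were pas-5 (0.022 and 0.022), pbs-1 (0.12 and 0.098, and 0.022 without htz-1 replicate 2), pbs-3 (0.10 and 0.083) and rpn-8 (0.0055 with quantile normalization). None of these passed the test. Whether the replicate numbers pair the libraries is not known. Deviations of same-numbered libraries correlated at 0.318 between N2 and lin-35, 0.099 between N2 and htz-1 and 0.016 between lin-35 and htz-1, which does not settle it. With a replicate block 15 genes rose in htz-1 and 1 in lin-35, as without it, and 19 were lower in lin-35 than in htz-1, of which 18 were among the 19 without it (rpt-5 was lost and pas-2 gained). The share of all tested genes that rose was 17.1% in htz-1 and 13.3% in lin-35 with the block, and 15.2% and 12.1% without it. Where a genotype is left with 1 library, that library is assumed to vary like the others. Depth limits the statements on rpn-6.2, with 64 to 146 reads.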
